A study of Mus musculus with 15 samples.

Results

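The genes described here encode the receptors for glutamate, GABA, glycine, acetylcholine and serotonin in cultures of mouse cerebellar cells. They were chosen by symbol: the mouse protein-coding genes of the AMPA (*Gria*), kainate (*Grik*), delta (*Grid*), NMDA (*Grin*) and metabotropic glutamate (*Grm*) receptors, the GABA-A (*Gabr*) and GABA-B (*Gabbr*) receptors, the glycine (*Glra*, *Glrb*), nicotinic (*Chrn*) and muscarinic (*Chrm*) receptors, and the serotonin receptors (*Htr*). The rule uses symbols and no measured value, though it was proposed with earlier results of these data known. It gave 85 of the 35142 genes with a transcript in the data. Among monoamine receptors it covers those for serotonin alone, so receptors for dopamine, noradrenaline and histamine are not described.

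Cerebellar cells of C57BL/6 wt pups aged P0 to P4 were dissociated, plated at 90000 cells per well and kept to day 14 in vitro. For the last 18 h, 5 cultures received 30 ng/ml recombinant murine IL-12p70, the active form of interleukin-12, 5 received 100 ng/ml, and 5 stayed unstimulated. The whole culture was lysed and sequenced in bulk, with 25746096 to 38435850 reads per culture, to ask what the cytokine does to neural cells. The labels number the cultures 1 to 5 in each group but do not say whether they came from separate preparations, so a p-value measures the spread between these cultures, which may be technical.

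Transmitter receptors are of 2 kinds. Ionotropic receptors are ion channels built from several subunits, each from its own gene; AMPA, kainate and NMDA receptors excite, and GABA-A and glycine receptors inhibit. Metabotropic receptors signal through G proteins; they include the metabotropic glutamate, GABA-B and muscarinic receptors and nearly all serotonin receptors. In the cerebellum, granule cells carry *Gabra6*, *Grin2a*, *Grin2c* and *Grm4*, and Bergmann glia, the radial astrocytes of the cortex, carry the AMPA receptor subunits *Gria1* and *Gria4*. Several receptors of this kind are thus made by glia as well as by neurons.

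The labels call the cells neurons, and the markers show a mixed culture. TPM, a read abundance corrected for transcript length and library size that allows levels to be compared between genes, was summed over marker genes of each cell type. In the unstimulated cultures the sum over 15 pan-neuronal markers was 516 ± 34.1 TPM (SD, n = 5), whereas it was 10877 ± 1485 over 14 microglial markers, 8397 ± 1380 over 12 oligodendrocyte markers and 4389 ± 204 over 15 markers of astrocytes and Bergmann glia. Granule cell markers summed to 179 ± 10.3 TPM and Purkinje cell markers to 55.2 ± 4.597 TPM, with the Purkinje gene *Skor2* at 0 in the unstimulated cultures. The other lists summed to 137 TPM for GABAergic interneurons, 631 for oligodendrocyte precursors, 1938 for fibroblasts and meninges, 1512 for ependyma and choroid plexus, 32.0 for endothelium and 6.25 for T and NK cells, with *Cldn5*, *Ncr1* and *Gzmb* at 0. In a whole culture, fewer cells of a type and less RNA per cell cannot be told apart.

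**Figure D1:**
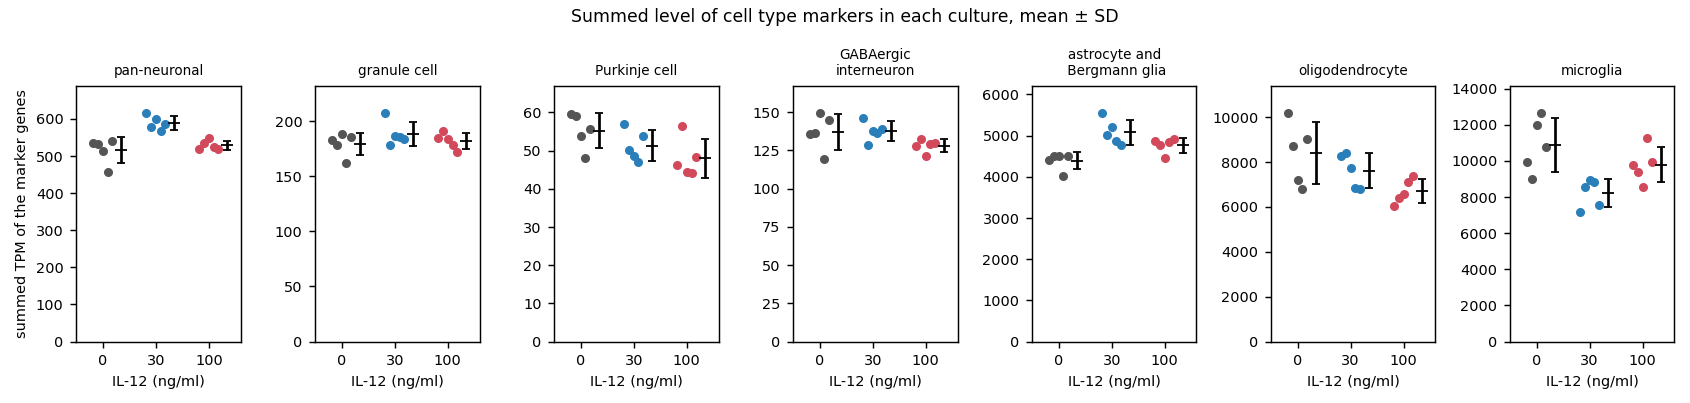
Summed TPM of the marker genes of 7 cell types (vertical axes, each from 0) in every culture at 0, 30 and 100 ng/ml IL-12; bars give the mean ± SD of 5 cultures. Microglial, oligodendrocyte and astrocyte sums lie far above those of the neuronal lists, and the 5 cultures with 30 ng/ml hold the lowest microglial mean, 8227 TPM.

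AMPA receptor genes dominated the receptor transcripts. All 85 genes together reached 422 ± 28.3 TPM in the unstimulated cultures, of which the 4 AMPA genes gave 166, the 18 GABA-A genes 70.2, the 5 kainate genes 47.3, the 2 GABA-B genes 41.3 and the 14 serotonin receptor genes 27.4. The 8 metabotropic glutamate genes gave 16.9 TPM, the 5 glycine receptor genes 14.01, the 15 nicotinic genes 11.9, the 7 NMDA genes 7.38 and the 5 muscarinic genes 1.58. Mean levels were above 10 TPM for 10 of the genes, from 1 to 10 TPM for 29 and below 1 TPM for 46.

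*Gria1*, an AMPA receptor subunit of many neurons and of Bergmann glia, was by far the most abundant. It stood at 137, 133, 113, 111 and 126 TPM in unstimulated replicates 1 to 5, which was 74.5% ± 0.992 of the AMPA class. *Gria3* followed at 20.7 ± 1.33 TPM and *Gria4* at 13.7 ± 1.44. *Gria2*, the subunit that makes AMPA channels impermeable to calcium, had 7.89 ± 1.13 TPM. Of the reads assigned to *Gria2*, 63.7% fell on its protein-coding transcripts, against 99.9% for *Gria1*. The deposited estimates divide reads between transcripts, so these shares are estimates too.

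Next in order came *Gabbr1*, the GABA-B subunit that binds the transmitter, at 39.3, 42.3, 36.5, 39.6 and 38.8 TPM. Its partner *Gabbr2*, which couples to the G protein and carries *Gabbr1* to the cell surface, stood at 2.00 ± 0.190 TPM. *Gabbr1* thus made up 95.1% of the class. *Grik5*, a kainate subunit that binds glutamate tightly and needs another subunit to form a channel, had 26.3 ± 1.16 TPM, 55.8% of the kainate class. *Htr2b*, a serotonin receptor coupled to Gq and expressed by microglia among other cells, had 22.4 ± 2.89 TPM and 81.6% of the serotonin class. *Htr2b* and *Gria3* lay within their SDs of each other, and *Gabrb1*, a GABA-A subunit also made by astrocytes, had 16.1 ± 1.92 TPM.

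The glycine class also rested on a single gene. *Glrb*, the structural subunit of the glycine receptor, had 13.8 ± 1.92 TPM and 98.3% of its class, whereas the ligand-binding subunits were scarce, with *Glra2* highest at 0.143 TPM and *Glra1*, the adult spinal form, at no more than 2 reads per culture. Among nicotinic genes *Chrnb1*, known from the muscle receptor, was highest at 6.21 ± 0.920 TPM, followed by the brain subunit *Chrna4* at 2.76 ± 0.340. *Chrna7*, the subunit of the homomeric brain receptor, had 0.698 ± 0.182 TPM. No read was assigned to *Chrna6* in any culture. The muscarinic gene *Chrm4* had 0.611 ± 0.261 TPM and *Chrm1* had 0.455 ± 0.133, values that overlap.

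GABA-A and metabotropic glutamate genes were spread over more members. The top gene, *Grm3*, held 25.1% of the metabotropic glutamate class, and *Gabrb1* with *Gabrb2* at 6.39 TPM and *Gabra4* at 4.96 were among the higher GABA-A genes. *Grm3*, an inhibitory autoreceptor also carried by astrocytes, had 4.21 ± 0.535 TPM, close to *Grm7* at 4.07 ± 1.29 and above *Grm5*, a Gq-coupled receptor of developing neurons and astrocytes, at 2.97 ± 0.720. NMDA receptor genes were low. *Grin1*, the subunit that every NMDA receptor requires, had 3.09 ± 0.479 TPM, and *Grin3a* had 1.99 ± 0.225.

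Markers of mature cerebellar neurons within the families were present at low levels. *Gabra6* was at 2.12, 1.14, 3.42, 1.5 and 1.69 TPM and *Grm4* at 1.77 ± 0.424. *Grin2a* had 0.703 ± 0.209 TPM and *Grin2c* 0.580 ± 0.212. *Htr3a*, which encodes an ion channel gated by serotonin, had at most 12 reads per culture. These values vary between unstimulated cultures by more than those of *Gria1* or *Gabbr1*.

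**Figure D2:**
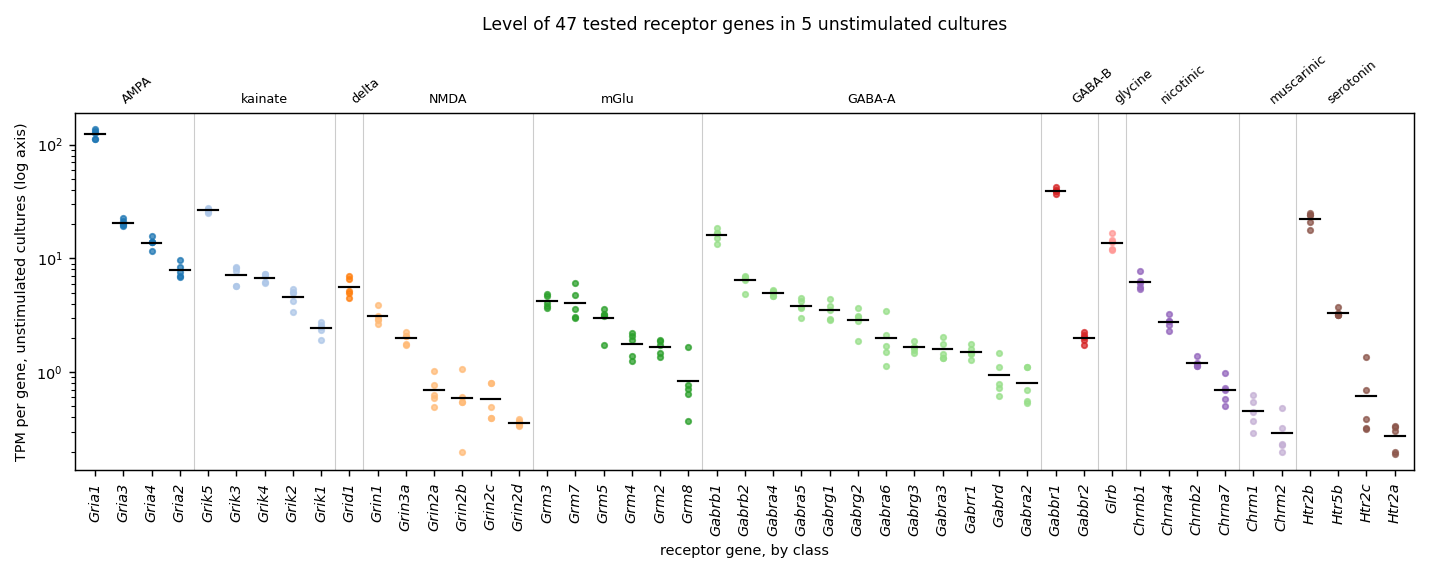
TPM of 47 tested receptor genes (horizontal axis, grouped by class and ordered by mean) in each of 5 unstimulated cultures (points; log axis), with the mean as a line. *Gria1* at 124 TPM stands above all others, and *Htr2a* at 0.272 TPM is the lowest of those tested.

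**Figure D3:**
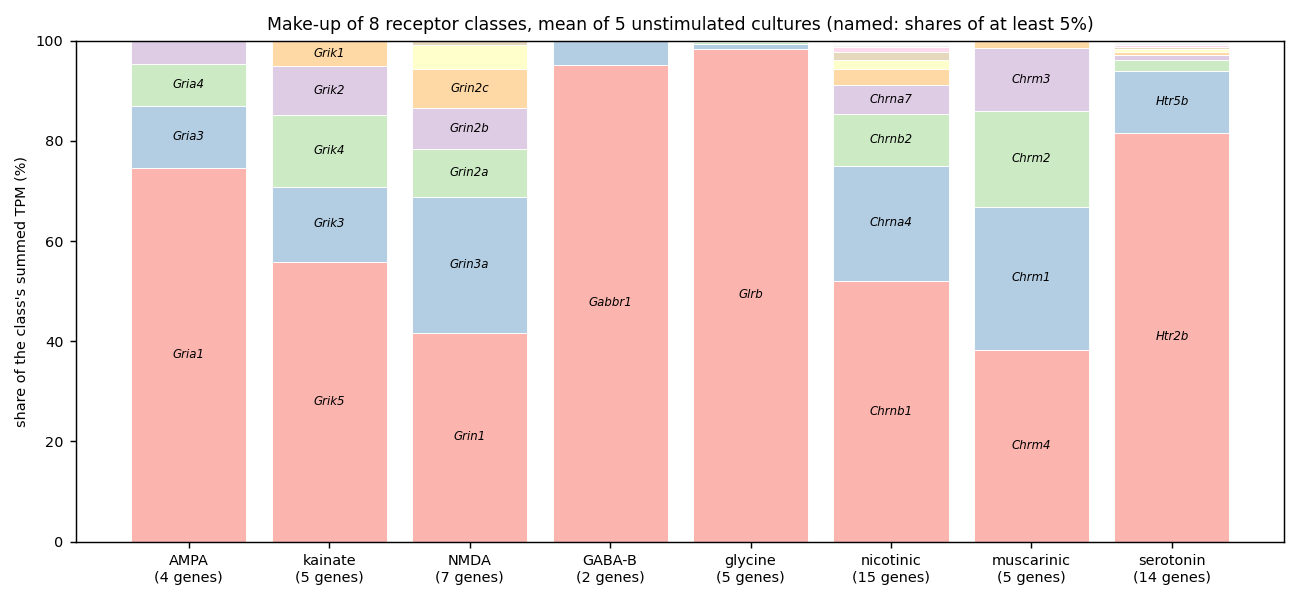
Share of each gene in the summed TPM of 8 of the classes (vertical axis, %), mean of 5 unstimulated cultures. *Glrb* (98.3%), *Gabbr1* (95.1%), *Htr2b* (81.6%) and *Gria1* (74.5%) fill most of their classes, whereas the NMDA and muscarinic classes are split between several genes.

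To test for a response to IL-12, reads were compared with edgeR's quasi-likelihood test over all genes with at least 1 CPM, a read count relative to the library total, in at least 2 cultures. Of the 85 receptor genes 51 passed this filter and 34 did not. Those left out are 11 nicotinic, 10 serotonin, 4 GABA-A, 4 glycine, 3 muscarinic, 1 metabotropic glutamate and 1 NMDA receptor gene, none with more than 38 reads in a culture. Genes whose p stayed under 0.05 after Benjamini-Hochberg adjustment over all 15360 genes tested are described as called. CPM here carry edgeR's TMM scaling and serve to compare a gene between groups.

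At 100 ng/ml 3 of 51 were called (5.88%), 2 higher and 1 lower, where 9.77% of all genes tested were called, 5.83% higher and 3.93% lower. At 30 ng/ml 6 were called (11.8%), 3 in each direction, against 7.87% of all genes, 4.16% higher and 3.71% lower. When the mean of both concentrations was set against the unstimulated cultures, 6 were called (11.8%), again 3 in each direction, against 11.9% of all genes, 6.71% higher and 5.22% lower. Both concentrations were compared with the same unstimulated cultures. The median log2 fold change of the 51 genes was -0.03 at 100 ng/ml, -0.03 at 30 ng/ml and -0.04 in the mean, beside -0.00379, 0.000137 and -0.0023 over all genes tested. By DESeq2 the counts of receptor genes were 5, 9 and 8. The shares of all genes given above are those of edgeR, so these counts cannot be set against them. Leaving out single cultures moved the count at 100 ng/ml between 1 and 5 and at 30 ng/ml between 2 and 7: at 100 ng/ml to 1 without unstimulated replicate 1, 3, 4 or 5 or 100 ng/ml replicate 1 or 3 and to 5 without 100 ng/ml replicate 2, and at 30 ng/ml to 3 without unstimulated replicate 1 or 30 ng/ml replicate 5 and to 2 without unstimulated replicate 3. In the mean it moved between 4, without unstimulated replicate 3, and 9, without 30 ng/ml replicate 1. The count of all genes called moved too. Over the alternative fits, DESeq2 among them, it ran from 906 to 2932 at 100 ng/ml and from 673 to 1668 at 30 ng/ml. In the mean it ran from 1203 to 2837. The 2932 came without 100 ng/ml replicate 2, where 5 receptor genes were called.

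Between 100 and 30 ng/ml no receptor gene was called by edgeR (6 at an unadjusted p under 0.05) or by DESeq2, where 0.579% of all genes were called, 0.501% higher and 0.0781% lower. The SE of a log2 fold change in this comparison had a median of 0.12 over the 51 genes, and the 95% interval lay within 0.5 of 0 on the log2 scale for 35 of them. For the remaining genes these intervals did not exclude a difference of that size between the concentrations.

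**Figure D4:**
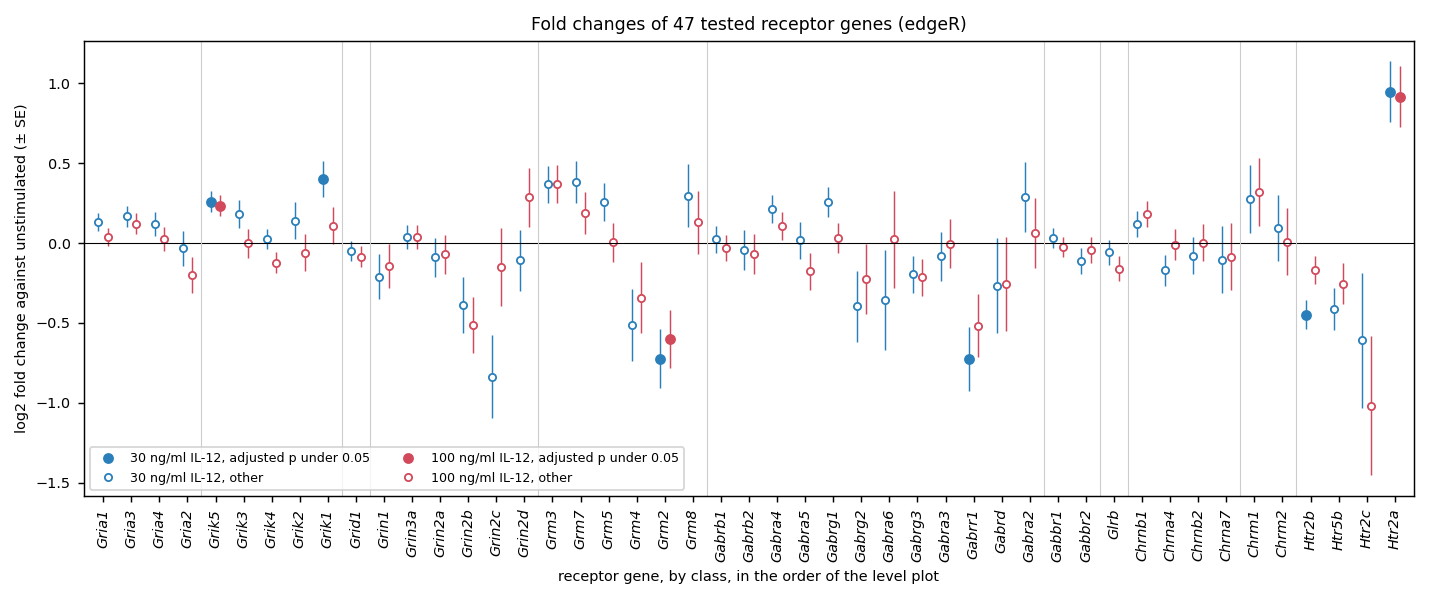
Log2 fold change against unstimulated cultures (vertical axis, ± SE) of 47 tested receptor genes, by class, at 30 ng/ml (blue) and 100 ng/ml (red); filled points have an adjusted p under 0.05. Filled points at both concentrations are *Grik5* and *Htr2a* above 0 and *Grm2* below it; *Grik1*, *Gabrr1* and *Htr2b* are filled at 30 ng/ml only, a difference between concentrations that did not pass its own test.

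The AMPA, delta, NMDA, GABA-B, glycine, nicotinic and muscarinic classes held no gene called by edgeR with all cultures in any comparison. DESeq2 called the NMDA genes *Grin2b* at 100 ng/ml (adjusted p = 0.0412) and in the mean (0.0308) and *Grin2c* at 30 ng/ml (0.0248). In the AMPA class, edgeR called *Gria2* lower at 100 ng/ml without 100 ng/ml replicate 2 (-0.33, adjusted p = 0.0157) and *Gria3* higher at 30 ng/ml when only the groups compared were fitted (0.16, adjusted p = 0.0353). *Gria1* was 433, 444, 386, 386 and 415 CPM in unstimulated cultures, 452, 463, 411, 458 and 480 at 30 ng/ml and 419, 413, 463, 392 and 433 at 100 ng/ml. These groups overlap. On the log2 scale *Gria1* changed between the groups by 0.13 at 30 ng/ml (95% interval 0.01 to 0.25, adjusted p = 0.147, edgeR) and 0.04 at 100 ng/ml (-0.08 to 0.16, adjusted p = 0.711, edgeR). *Gabbr1* had 0.03 (-0.11 to 0.17) at 30 ng/ml and -0.03 (-0.16 to 0.11) at 100 ng/ml. For *Gria1* and *Gabbr1* a change of 0.5 on the log2 scale lies outside these intervals. The intervals of *Gabra6* were wider, from -1.04 to 0.32 at 30 ng/ml and from -0.64 to 0.68 at 100 ng/ml.

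*Htr2a*, a Gq-coupled serotonin receptor of excitatory and other neurons, showed the largest called rise. In unstimulated replicates 1 to 5 it had 1.15, 1.11, 0.730, 0.717 and 1.18 CPM. With 30 ng/ml it had 2.67, 1.39, 1.87, 1.86 and 1.70 CPM, and with 100 ng/ml 1.63, 1.92, 2.07, 1.92 and 1.78 CPM. Every stimulated culture lay above every unstimulated one, on 20 to 81 reads per culture. On the log2 scale the difference was 0.95 ± 0.19 (SE) at 30 ng/ml (adjusted p = 0.00604, edgeR), 0.92 ± 0.19 at 100 ng/ml (adjusted p = 0.00543) and 0.93 ± 0.17 in the mean (adjusted p = 0.0018). Between the concentrations it was -0.03, with a 95% interval from -0.41 to 0.35. It was called in all 23 alternative settings at each concentration.

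*Htr2b* moved the other way. Its levels were 24.4, 19.7, 25.0, 26.2 and 22.7 CPM unstimulated, 15.4, 18.7, 18.5, 18.8 and 15.2 CPM at 30 ng/ml and 20.2, 21.2, 18.0, 24.3 and 21.4 CPM at 100 ng/ml. All cultures with 30 ng/ml lay below the unstimulated ones, whereas those with 100 ng/ml overlapped both. It fell at 30 ng/ml (log2 fold change -0.45 ± 0.09, adjusted p = 0.00609, edgeR) and in the mean (-0.31 ± 0.08, adjusted p = 0.0139), and stood at -0.17 ± 0.09 at 100 ng/ml (adjusted p = 0.245). The difference between the concentrations was 0.28 ± 0.09 (adjusted p = 0.202).

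Microglial markers moved with *Htr2b*. Of the 14 tested, 9 were lower at 30 ng/ml and 0 at 100 ng/ml, with medians of -0.42 and -0.12 on the log2 scale, and 6 were lower in the mean. Among them *Trem2*, a microglial lipid receptor, had -0.51 (adjusted p = 0.00638, edgeR) and *Cx3cr1*, the fractalkine receptor, -0.43 (adjusted p = 0.0251) at 30 ng/ml. Their summed level was 8985 to 12651 TPM unstimulated, 7171 to 8968 at 30 ng/ml and 8579 to 11264 at 100 ng/ml. In the unstimulated cultures both the sum and *Htr2b* were lowest in replicate 2 and highest in replicate 4, and with 100 ng/ml both were lowest in replicate 3 and highest in replicate 4. With 30 ng/ml the order differed: the sum was lowest in replicate 1 and highest in replicate 3, and *Htr2b* was lowest in replicate 5 and highest in replicate 4. The part of these cells in the change of *Htr2b* was not tested. *Htr2b* overlaps *Psmd1*, a proteasome gene on the opposite strand, and 10.3% of its 31-base stretches also occur there in reverse complement. Whether the program behind the estimates used the strand of the reads is not given in the sources used here. *Psmd1* itself had 178, 172 and 174 CPM in the unstimulated, 30 and 100 ng/ml groups and -0.05 on the log2 scale at 30 ng/ml (adjusted p = 0.435).

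The other tested serotonin receptor genes, *Htr5b* and *Htr2c*, were not called by edgeR with all cultures. *Htr5b* had 3.63, 4.37, 3.83, 3.80 and 3.78 CPM unstimulated and 3.70, 2.99, 2.58, 2.61 and 2.69 CPM at 30 ng/ml, which is -0.41 ± 0.13 on the log2 scale (adjusted p = 0.0648, edgeR). DESeq2 called it at 30 ng/ml (adjusted p = 0.039) and in the mean (0.0421), and edgeR called it at 30 ng/ml without 30 ng/ml replicate 1 or 100 ng/ml replicate 3 and in the mean without 30 ng/ml replicate 1 or 100 ng/ml replicate 4 (adjusted p up to 0.0466). *Htr2c*, known for its high level in choroid plexus, varied widely between cultures. It had 3.29, 2.19, 0.986, 1.0 and 1.18 CPM unstimulated, 2.61, 0.938, 0.524, 0.756 and 0.920 CPM at 30 ng/ml and 0.376, 0.626, 1.0, 0.908 and 1.40 CPM at 100 ng/ml. The 3 cultures highest in *Htr2c*, unstimulated replicates 1 and 2 and 30 ng/ml replicate 1, were also among the highest in the summed ependymal and choroid plexus markers, at 1679, 1638 and 1670 TPM, where the other cultures had at most 1489 TPM. The part of ependymal and choroid plexus cells in the spread of *Htr2c* was not tested. Without 30 ng/ml replicate 1 *Htr2c* was called lower in the mean (-1.09, adjusted p = 0.0353, edgeR). *Htr2b* carried the class sum, which went from 27.4 ± 2.69 TPM to 20.7 ± 0.847 at 30 ng/ml and 24.3 ± 2.61 at 100 ng/ml.

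*Grm2*, a Gi-coupled receptor that limits transmitter release and marks Golgi cells in the cerebellum, fell at both concentrations. It had 3.08, 2.98, 4.20, 3.12 and 3.44 CPM unstimulated, 2.97, 2.15, 1.72, 1.72 and 1.56 CPM at 30 ng/ml and 1.69, 2.82, 1.68, 2.25 and 2.65 CPM at 100 ng/ml. No stimulated culture reached the lowest unstimulated one, though 30 ng/ml replicate 1 came close, on 44 to 118 reads per culture. *Grm2* differed by -0.72 ± 0.19 on the log2 scale at 30 ng/ml (adjusted p = 0.0227, edgeR), -0.60 ± 0.18 at 100 ng/ml (adjusted p = 0.0463) and -0.66 ± 0.16 in the mean (adjusted p = 0.0109). The call in the mean remained in every alternative setting, with an adjusted p of at most 0.0436. The call at 30 ng/ml was lost without unstimulated replicate 3 (adjusted p = 0.0704) or 30 ng/ml replicate 3, 4 or 5, and that at 100 ng/ml without unstimulated replicate 1, 2, 3, 4 or 5, 30 ng/ml replicate 2, 3 or 4 or 100 ng/ml replicate 1, 3 or 4 (adjusted p up to 0.118). At 100 ng/ml it was also lost with no filter on low counts (0.0572) and with effective length offsets (0.0694). Of the 31-base stretches of *Grm2*, 8.87% also occur in reverse complement in *Gm28111* or *Gm20707*. As for *Htr2b*, it is not given whether the strand of the reads was used.

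*Grm3* had 6.64, 8.35, 7.41, 6.74 and 8.48 CPM unstimulated, 9.24, 8.10, 9.66, 10.3 and 11.1 CPM at 30 ng/ml and 10.03, 11.5, 11.2, 7.70 and 8.16 CPM at 100 ng/ml. The groups overlap. It rose in the mean of both concentrations (0.37 ± 0.10, adjusted p = 0.0281, edgeR), a call lost without unstimulated replicate 1 (adjusted p = 0.0879), 3 (0.0637) or 4 (0.0773), and had 0.37 ± 0.12 at each concentration alone (adjusted p = 0.0656 at 30 and 0.0569 at 100 ng/ml, edgeR; 0.0359 and 0.0301 by DESeq2). Of the 15 markers of astrocytes and Bergmann glia, 4 were higher at 30 ng/ml and 2 higher and 2 lower at 100 ng/ml, and their sum went from 4030 to 4504 TPM unstimulated to 4775 to 5548 at 30 ng/ml and 4458 to 4910 at 100 ng/ml. The median log2 fold change of these markers was 0.14 at 30 ng/ml, -0.04 at 100 ng/ml and 0.001 in the mean. *Gfap* alone averaged 2366 TPM unstimulated, 2804 at 30 ng/ml and 2720 at 100 ng/ml. The part of these cells in the value of *Grm3* was not tested. The metabotropic genes *Grm4*, *Grm5*, *Grm7* and *Grm8*, were not called. *Grm4* had -0.51 ± 0.22 at 30 ng/ml (adjusted p = 0.177) and *Grm5* had 0.26 ± 0.12 (adjusted p = 0.215).

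In the kainate class *Grik5* rose. *Grik5* had 49.3, 53.1, 51.1, 49.9 and 51.2 CPM unstimulated, 64.8, 60.1, 55.2, 59.6 and 64.8 CPM at 30 ng/ml and 65.7, 49.3, 64.8, 57.6 and 61.4 CPM at 100 ng/ml. All cultures with 30 ng/ml were above the unstimulated range, and with 100 ng/ml all except replicate 2. Its log2 fold changes of 0.26 ± 0.07 at 30 ng/ml (adjusted p = 0.0222, edgeR), 0.23 ± 0.07 at 100 ng/ml (adjusted p = 0.0344) and 0.25 ± 0.06 in the mean (adjusted p = 0.0106) were smaller than those of *Htr2a*, at a far higher level. The call in the mean remained in every alternative setting, with an adjusted p of at most 0.0321. The call at 30 ng/ml was lost without unstimulated replicate 1, 3 or 4 or 30 ng/ml replicate 1 or 5 (adjusted p up to 0.064), and that at 100 ng/ml without unstimulated replicate 1, 3, 4 or 5 or 100 ng/ml replicate 1, 3 or 5 (adjusted p up to 0.0928). *Zfp574*, which overlaps *Grik5* on the opposite strand, had 0.15 on the log2 scale at 30 ng/ml (adjusted p = 0.263).

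*Grik1*, a channel-forming kainate subunit, had 5.23, 4.88, 3.73, 5.02 and 5.66 CPM unstimulated, 6.67, 6.99, 5.54, 5.67 and 7.5 CPM at 30 ng/ml and 5.04, 5.01, 6.22, 5.28 and 4.90 CPM at 100 ng/ml. It was higher at 30 ng/ml (0.40 ± 0.11, adjusted p = 0.038, edgeR), with 1 culture inside the unstimulated range, and stood at 0.11 ± 0.12 at 100 ng/ml (adjusted p = 0.597). The call was lost without unstimulated replicate 1, 2, 3 or 4 or 30 ng/ml replicate 1, 2 or 5 (adjusted p up to 0.108). The difference between concentrations was -0.29 ± 0.11 (adjusted p = 0.291). *Grik2*, *Grik3* and *Grik4* were not called.

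Beside the rises of *Grik5*, *Grik1* and *Htr2a*, the summed pan-neuronal markers were 458 to 540 TPM unstimulated, 568 to 616 at 30 ng/ml and 518 to 548 at 100 ng/ml. Every sum at 30 ng/ml was above the unstimulated range, and the sums at 100 ng/ml overlapped it. Of the 15 markers, 3 were higher and 0 lower at 30 ng/ml, 1 was higher and 0 lower at 100 ng/ml, and 3 were higher and 1 lower in the mean. Their median log2 fold change was 0.05 at 30 ng/ml, -0.05 at 100 ng/ml and -0.05 in the mean. At 30 ng/ml, at 100 ng/ml and in the mean 7, 9 and 8 of them were below 0. Of the 14 granule cell markers tested, 10, 12 and 11 were below 0 in the same order, with medians of -0.30, -0.13 and -0.24. At 30 ng/ml 1 of these was higher and 1 lower, and 0 were called at 100 ng/ml or in the mean. Their sum was 179 TPM unstimulated, 188 at 30 ng/ml and 182 at 100 ng/ml. Of the 8 Purkinje cell markers tested, 4, 5 and 5 were below 0, and *Calb1* was called lower in all these comparisons. The part of neuronal content in the rises of *Grik5*, *Grik1* and *Htr2a* was not tested.

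*Gabrr1*, a rho subunit of GABA-gated channels best known from the retina, was the only GABA-A gene called by edgeR with all cultures. It had 1.93, 2.40, 2.26, 2.04 and 1.68 CPM unstimulated, 1.45, 1.32, 0.936, 0.893 and 1.63 CPM at 30 ng/ml and 1.5, 1.13, 0.940, 1.72 and 1.87 CPM at 100 ng/ml. All 5 values at 30 ng/ml were lower than every unstimulated value, by a narrow margin in replicate 5, on 25 to 74 reads per culture over the series. It fell at 30 ng/ml (-0.72 ± 0.20, adjusted p = 0.0338, edgeR) and in the mean (-0.62 ± 0.17, adjusted p = 0.0235) and stood at -0.52 ± 0.20 at 100 ng/ml (adjusted p = 0.104). The call in the mean was lost without unstimulated replicate 2 (adjusted p = 0.0571) or 3 (0.0634), and that at 30 ng/ml without unstimulated replicate 1, 2, 3 or 4 or 30 ng/ml replicate 2, 3 or 4 (adjusted p up to 0.083). Of the sequence of *Gabrr1*, 5.02% of 31-base stretches are shared with *Gabrr2*, which had at most 8 reads per culture. The 13 other tested GABA-A genes, including the abundant *Gabrb1* at 0.02 ± 0.08 at 30 ng/ml, were not called by edgeR with all cultures; *Gabra4* was called higher at 30 ng/ml with effective length offsets (adjusted p = 0.0369) and *Gabrg1* without unstimulated replicate 2 (0.0408).

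**Figure D5:**
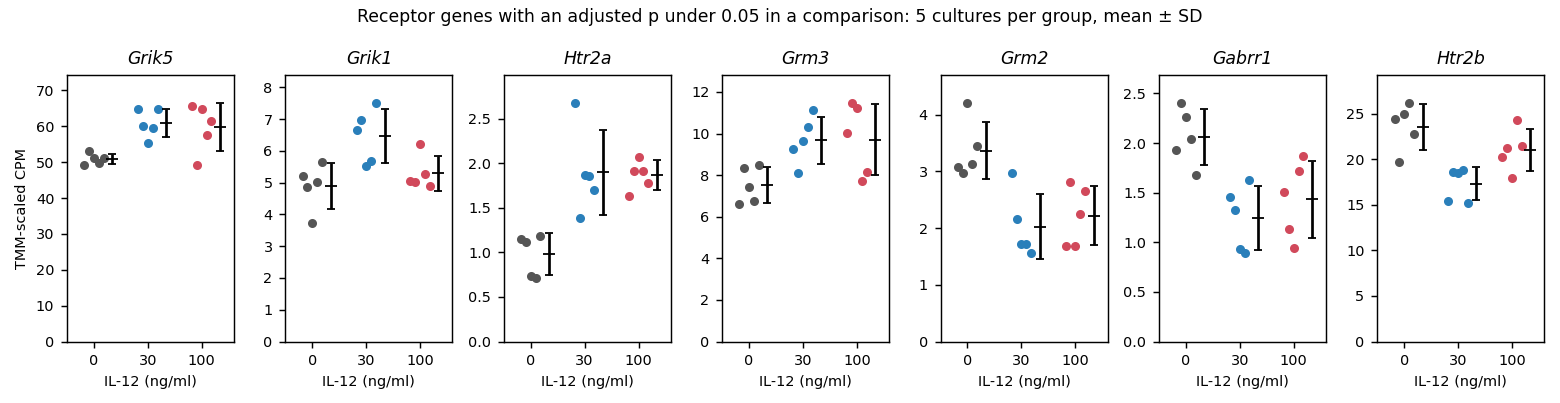
TMM-scaled CPM (vertical axes, each from 0) of the 7 receptor genes called in at least 1 comparison, in each of 5 cultures at 0, 30 and 100 ng/ml IL-12, with the mean ± SD. *Htr2a* and *Grm2* are separated from the unstimulated cultures at both concentrations, and *Grik5*, *Gabrr1* and *Htr2b* at 30 ng/ml. The share of all genes tested that separate likewise was not counted.

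NMDA receptor genes came near the threshold of edgeR without passing it when all cultures were fitted. *Grin2c*, a subunit of mature granule cells, had 1.33, 1.04, 2.19, 1.08 and 2.14 CPM unstimulated and 1.16, 0.834, 0.936, 0.859 and 0.531 CPM at 30 ng/ml. The groups overlap in replicate 1 of the latter, and on the log2 scale they differed by -0.84 ± 0.26 (adjusted p = 0.0563, edgeR). *Grin2b*, the juvenile partner subunit, had -0.51 ± 0.17 at 100 ng/ml (adjusted p = 0.072) and -0.45 ± 0.15 in the mean (adjusted p = 0.0574). With edgeR *Grin2c* was called at 30 ng/ml without unstimulated replicate 2 or 4 or 100 ng/ml replicate 1, and *Grin2b* at 100 ng/ml without 30 ng/ml replicate 1 or 100 ng/ml replicate 2 and in the mean without either of these or unstimulated replicate 2 (adjusted p up to 0.0488). *Grin1* had -0.21 ± 0.14 at 30 ng/ml (adjusted p = 0.404) and *Grin2a* -0.09 ± 0.12 (adjusted p = 0.722). *Grin2c* and *Grin2b* were named after their values were seen to lie near the threshold, though *Grin2c* is also named as a granule cell marker.

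For the 2 genes whose cultures were separated from the unstimulated ones at both concentrations, *Htr2a* and *Grm2*, the RefSeq promoter sequences (build GRCm38.p6, 250 bases before to 50 after the transcript start, 5′ to 3′ on the gene's strand) are shown, with no bases in capitals since the motif searched was in neither. How many of all genes tested were separated in this way was not counted. *Htr2a* is at chr14:74640624-74640923 on the plus strand and *Grm2* at chr9:106656060-106656359 on the minus strand.
Htr2a: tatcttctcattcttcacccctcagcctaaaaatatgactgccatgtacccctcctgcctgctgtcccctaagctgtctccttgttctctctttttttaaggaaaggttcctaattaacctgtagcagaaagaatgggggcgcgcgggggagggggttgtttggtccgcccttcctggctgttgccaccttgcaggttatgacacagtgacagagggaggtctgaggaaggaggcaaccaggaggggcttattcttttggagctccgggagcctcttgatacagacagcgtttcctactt
Grm2: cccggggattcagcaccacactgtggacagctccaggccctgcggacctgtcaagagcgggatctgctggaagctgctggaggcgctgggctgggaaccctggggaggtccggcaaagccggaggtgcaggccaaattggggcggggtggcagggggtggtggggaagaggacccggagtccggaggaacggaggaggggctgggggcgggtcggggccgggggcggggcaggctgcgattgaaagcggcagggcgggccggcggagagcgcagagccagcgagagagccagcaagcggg

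G and C make up 52.0% of the bases at *Htr2a* and 72.0% at *Grm2*, beside a median of 52.7% over 32851 mouse promoters of the same length. The motif searched was TTCNNNGAA, the inverted repeat bound by STAT factors, which reads the same on both strands. It was in 8.30% of all promoters and in 5 of the 71 promoters of the 61 receptor genes matched (7.04%). These belonged to *Gabrg1*, *Gabrb1*, *Chrna5* and *Gabra6*. It was in none of the promoters of the 6 called genes matched; *Grik1* had no entry. A match says only that these letters occur in the window, and so does its absence.

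Genes that serve the receptors were counted from 2 lists. Of 44 postsynaptic scaffold and auxiliary subunit genes 40 were tested: 4 were higher and 1 lower at 100 ng/ml, 5 higher and 2 lower at 30 ng/ml, 0 differed between the concentrations, and 6 were higher and 3 lower in the mean. These are 12.5%, 17.5% and 22.5% of the list at 100 ng/ml, at 30 ng/ml and in the mean, beside 9.77%, 7.87% and 11.9% of all genes. The median log2 fold change in the mean was 0.05. *Cacng5*, an AMPA receptor auxiliary subunit, rose from 16.0 ± 2.52 CPM to 25.8 ± 3.001 at 30 and 24.4 ± 1.77 at 100 ng/ml (0.64 ± 0.09 in the mean, adjusted p = 0.000128, edgeR). *Gsg1l*, an auxiliary subunit that dampens AMPA currents, fell from 1.77 ± 0.278 CPM to 1.18 ± 0.131 and 1.21 ± 0.142 (-0.56 ± 0.12, adjusted p = 0.00683). *Cacng3*, of the same family as *Cacng5*, fell from 1.92 ± 0.539 CPM to 1.22 ± 0.216 and 1.28 ± 0.365 (-0.62 ± 0.18, adjusted p = 0.0343).

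Of 28 genes of transmitter synthesis, uptake and vesicle loading 22 were tested. At 100 ng/ml 0 were called, at 30 ng/ml 1 was higher and 2 lower, and in the mean 1 was higher and 3 lower, with a median log2 fold change of -0.07. The 3 called at 30 ng/ml are 13.6% of the list and the 4 in the mean 18.2%, beside 7.87% and 11.9% of all genes. At 100 ng/ml, where 0 of the list were called, 9.77% of all genes were. The 3 that fell in the mean mark inhibitory neurons and are in the list of GABAergic interneuron markers too. *Slc6a5*, the neuronal glycine transporter, went from 2.79 ± 0.448 CPM to 1.72 ± 0.365 at 30 and 2.27 ± 0.443 at 100 ng/ml (-0.49 ± 0.14 in the mean, adjusted p = 0.0321, edgeR). *Gad1*, which makes GABA, went from 16.4 ± 3.24 CPM to 11.6 ± 2.24 and 12.4 ± 2.21 (-0.45 ± 0.12, adjusted p = 0.0261), and *Gad2*, its sister enzyme, had -0.44 ± 0.13 (adjusted p = 0.0325). The summed level of the 12 interneuron markers was 137 ± 11.6 TPM unstimulated, 138 ± 6.30 at 30 ng/ml and 128 ± 4.08 at 100 ng/ml. The highest of them had 44.8 TPM unstimulated, where their median was 3.02, so the sum rests mostly on the abundant markers. Of the 11 tested, 8, 10 and 9 were below 0 at 30 ng/ml, at 100 ng/ml and in the mean. Their median log2 fold changes were -0.09, -0.16 and -0.12. The part of GABAergic interneurons in the fall of *Grm2* and *Gabrr1* was not tested.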

How the data were processed

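RNA of 15 cultures was sequenced after a stranded mRNA preparation. Per the labels and the submitters' processing notes, the authors used FastQC 0.10.0, STAR 2.7.8a and featureCounts on GRCm39. The deposited files instead hold, for 121798 transcripts, an estimated count, TPM, length and effective length; the program that made these is not given in the sources used here. The deposited TPM are per transcript and scaled to a common total in each culture.

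Estimated counts and TPM were summed to 35142 genes with GENCODE release M39 on GRCm39 (99.0% of transcripts matched; the rest, 0.677% to 0.712% of reads, were left out). Counts were rounded, filtered at 1 CPM in 2 cultures, scaled with TMM and fitted for all 3 groups in 1 model with edgeR 4.0.16 (glmQLFit, glmQLFTest) in R 4.3.3. The study names the same filter and negative binomial models of edgeR; the scaling, the quasi-likelihood test and the single model were chosen here. Alternatives were DESeq2 1.42.0, RLE factors, library size alone, 2 other filters, effective length offsets, only the groups compared, a replicate block, and each culture left out. On simulated data (100 ng/ml against unstimulated, 15360 genes, 200 changed) edgeR recovered 92% of changes of 1 on the log2 scale and 81% of changes of 0.5. Of its 186 calls 13 were unchanged genes. The counts were drawn with the spread fitted to the data, for genes at all levels. The shares recovered are thus not those of the receptor genes. Shared sequence was found as 31-base stretches of the transcripts. Python 3.11.15, pandas 2.3.3 and matplotlib 3.10.9 were used for tables and plots.

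The receptor genes, the 2 lists of partner genes and the 12 marker lists were chosen with earlier results of these data known. Genes named are those called in any comparison, the 2 highest of each class, textbook cerebellar markers, genes with no read, and the 3 largest called changes of each partner list in the mean. Of the 85 receptor genes, 15 overlap a coding gene on the opposite strand and 2 on the same strand. Values of 4 receptor genes are not reported here. Where a fit leaves out a culture, the spread is shared by all groups.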

Additional observations from a re-analysis of the deposited data

Results flagged for a closer look

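In 96 sets of 5 cultures, for which chance alone flags about 1 in 20, 6 had a culture far from the other 4. Unstimulated replicate 5 had 8.64 TPM summed over NMDA receptor genes, where the others had 6.91 to 7.11. With 30 ng/ml, replicate 5 had 2.26 TPM over muscarinic receptor genes (others 1.22 to 1.48). With 30 ng/ml, replicate 1 had 1115 TPM over the transmitter synthesis and uptake genes (others 1000 to 1031) and 1670 TPM over ependymal and choroid plexus markers (others 1195 to 1284). With 100 ng/ml, replicate 1 had 746 TPM over scaffolds and auxiliary subunits (others 780 to 792). Unstimulated replicate 4 had 4030 TPM over astrocyte and Bergmann glia markers (others 4410 to 4504). None of these sums entered a test, and no cause was tested.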

How the results depend on the processing

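Of the receptor genes, 5 were called at 100 ng/ml with DESeq2 and 1 with the replicate block, against 3, and leaving out single cultures gave 1 to 5; at 30 ng/ml the range was 2 to 7 against 6. Over all genes, 906 were called at 100 ng/ml with effective length offsets and 946 with only the groups compared, against 1500, and 940 to 2932 with a culture left out, the highest without 100 ng/ml replicate 2. At 30 ng/ml, 776 were called with offsets and 673 to 1668 with a culture left out, against 1209; with library size alone 63.1% of 1411 calls were higher, against 52.9%. Between the concentrations 241 were called with DESeq2 and 38 to 147 with a culture left out, against 89. In the mean, 1206 were called with offsets and 1203 to 2837 with a culture left out, against 1832. The causes were not tested.

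Between the concentrations, where no receptor gene was called, signs turned for *Grik5* (0.00112 with offsets; -0.0627 to 0.034 with a culture left out), *Grm3* (-0.0106 with library size alone, -0.00605 with offsets, -0.00523 with the block; -0.0621 to 0.0737 with a culture left out) and *Htr2a* (-0.12 to 0.13 with a culture left out). Deviations of same-numbered cultures correlated at -0.26 to 0.29, with 5 of 15 pairs above 0.1. Those of differently numbered cultures correlated at -0.31 to 0.35, with 17 of 60 pairs above 0.1. These correlations showed no pairing by replicate number. Whether same-numbered cultures share a preparation is not stated in the labels. With the replicate block *Grik5* (adjusted p = 0.0554) and *Grm2* (0.0859) lost their calls at 100 ng/ml, and *Gabrr1* (0.0501) and *Grik1* (0.0643) at 30 ng/ml. With effective length offsets *Grik5* (0.0536), *Gabrr1* (0.0565) and *Grik1* (0.0504) lost theirs at 30 ng/ml, and with only the groups compared *Grik5* (0.0617) at 100 and *Grik1* (0.0512) at 30 ng/ml. The comparison of the mean has no fit with only the groups compared, since it needs all groups. Genes with few reads, such as *Htr2a*, *Gabrr1* and *Grm2*, carry the widest errors.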
